A study of Mus musculus with 99 samples.

Results

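The narrow RING1B loci are the peaks under 800 bp in the RING1B ChIP-seq of mouse embryonic stem cells (ESCs) that live on RING1B WT alone. They were chosen by end minus start of the peak in that library, and 975 of its 3941 peaks met the limit, so the width and the height of the RING1B peak are a description of the choice and are given with no test. The study profiled 12 antibodies and RNA in ROSA26::creERT2 Ring1A-/-;Ring1B fl/fl ESCs (Parental), in single sub-clones of that line that express 2xFlag-HA RING1B WT or the catalytically inactive RING1B I53S from a pCAG vector, and in MTF2 KO clones of these lines made by CRISPR. Cells received 0.5 µM 4-hydroxytamoxifen (OHT), which deletes endogenous Ring1B, or ethanol as vehicle (−OHT) for 72 h, with 48 h for some MTF2 and JARID2 libraries. Eed fl/fl ESCs, which lose the PRC2 subunit EED with OHT, were of separate origin with RNA only, and the study lists 2 clones of them. All lines grew in 2i/LIF medium with serum. Every Parental-derived line lacks RING1A with and without OHT, so −OHT cells rely on RING1B. Each antibody and condition had 1 library, except MTF2 and JARID2 in RING1B WT and I53S cells at 72 h with 2, and each RNA group had 2 biological replicates.

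Polycomb repressive complex 1 (PRC1) puts ubiquitin on histone H2A (H2AK119ub1) through RING1A or RING1B, and PRC2 methylates histone H3 (H3K27me3) with SUZ12 and EED as core subunits. Canonical PRC1 holds PCGF2 or PCGF4 and a CBX protein such as CBX7, which reads H3K27me3, whereas variant PRC1 holds RYBP or YAF2 in place of CBX. The variant PRC1.6 is built on PCGF6 and is brought to DNA by MGA with MAX and by E2F6, and it is known in ESCs for silencing meiosis and germ cell genes. MTF2 and EPOP belong to the PRC2.1 form, and JARID2 and AEBP2 to PRC2.2.

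The central 300 bases of 7 narrow loci show what kind of DNA they cover. They were read from GRCm38, the build of the peak lists (mm10), on the plus strand, and capitals mark 3 motifs on either strand: CACGTG, the E-box of MAX, TCCCGC (or GCGGGA), the E2F element, and TCACACC (or GGTGTGA), a T-box element like that of MGA. The first lies at Nr2f1 (chr13:78199350-78199649), the narrow locus with the highest RING1B score. The second lies at Cops7a (chr6:124965107-124965406), the highest in untreated Parental cells among loci with PCGF6 and without H3K27me3 or PCGF2. The next, at Bves (chr10:45335757-45336056) and Per1 (chr11:69100744-69101043), had no H3K27me3, PCGF2, PCGF6 or RYBP peak in untreated Parental cells. The last lie at the germ cell genes Ddx4 (chr13:112652019-112652318), Mael (chr1:166238511-166238810) and Tdrd1 (chr19:56826170-56826469). All 7 windows lie within 2.5 kb of an annotated start site.
Nr2f1: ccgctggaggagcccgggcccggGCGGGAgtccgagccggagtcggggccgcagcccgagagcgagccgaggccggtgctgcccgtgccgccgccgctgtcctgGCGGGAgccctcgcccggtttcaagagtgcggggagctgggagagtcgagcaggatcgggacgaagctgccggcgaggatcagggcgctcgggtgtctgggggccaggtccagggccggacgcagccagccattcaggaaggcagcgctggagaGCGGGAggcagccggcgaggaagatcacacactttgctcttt
Cops7a: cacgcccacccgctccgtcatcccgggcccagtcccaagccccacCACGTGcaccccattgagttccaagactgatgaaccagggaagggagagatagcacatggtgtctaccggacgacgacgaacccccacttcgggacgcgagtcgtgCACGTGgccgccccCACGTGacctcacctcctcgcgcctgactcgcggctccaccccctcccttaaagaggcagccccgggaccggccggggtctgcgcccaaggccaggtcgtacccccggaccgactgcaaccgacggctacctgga
Bves: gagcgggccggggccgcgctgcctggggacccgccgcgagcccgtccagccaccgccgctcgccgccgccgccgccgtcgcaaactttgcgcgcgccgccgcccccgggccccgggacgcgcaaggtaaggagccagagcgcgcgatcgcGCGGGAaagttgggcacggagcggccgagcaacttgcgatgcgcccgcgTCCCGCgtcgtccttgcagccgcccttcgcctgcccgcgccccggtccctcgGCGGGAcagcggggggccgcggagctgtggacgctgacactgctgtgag
Per1: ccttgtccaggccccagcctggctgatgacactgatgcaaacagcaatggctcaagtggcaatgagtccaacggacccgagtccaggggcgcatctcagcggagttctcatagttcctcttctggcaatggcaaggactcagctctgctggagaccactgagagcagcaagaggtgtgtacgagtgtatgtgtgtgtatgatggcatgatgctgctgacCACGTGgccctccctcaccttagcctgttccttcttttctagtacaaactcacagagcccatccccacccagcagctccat
Ddx4: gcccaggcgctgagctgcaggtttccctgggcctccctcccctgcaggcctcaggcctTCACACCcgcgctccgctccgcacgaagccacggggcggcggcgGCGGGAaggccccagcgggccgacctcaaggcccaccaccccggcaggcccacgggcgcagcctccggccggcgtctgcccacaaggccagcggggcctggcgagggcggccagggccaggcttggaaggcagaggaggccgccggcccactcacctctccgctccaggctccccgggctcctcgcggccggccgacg
Mael: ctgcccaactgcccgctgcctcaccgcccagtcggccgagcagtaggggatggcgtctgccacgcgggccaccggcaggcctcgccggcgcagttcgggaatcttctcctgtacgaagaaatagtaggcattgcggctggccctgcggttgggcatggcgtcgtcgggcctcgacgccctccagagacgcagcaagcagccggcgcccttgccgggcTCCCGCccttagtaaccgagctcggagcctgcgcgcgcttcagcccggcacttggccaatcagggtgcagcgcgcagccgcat
Tdrd1: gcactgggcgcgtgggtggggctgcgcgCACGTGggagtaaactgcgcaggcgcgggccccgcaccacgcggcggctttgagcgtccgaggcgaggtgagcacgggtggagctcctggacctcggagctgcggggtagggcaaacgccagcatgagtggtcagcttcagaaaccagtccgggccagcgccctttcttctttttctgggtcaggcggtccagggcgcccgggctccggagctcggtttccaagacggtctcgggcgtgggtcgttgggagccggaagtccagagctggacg

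The windows at Nr2f1, Cops7a, Bves, Ddx4, Mael and Tdrd1 are dense in CpG, and the one at Per1 is not. The ratio of observed to expected CpG was 0.86 at Nr2f1 and 1.15 at Bves, against 0.26 at Per1. The Nr2f1 and Bves windows each held TCCCGC 3 times, and the Cops7a window held CACGTG 3 times. The Tdrd1 window held CACGTG 1 time, the Mael window TCCCGC 1 time, and the Ddx4 window TCCCGC and TCACACC 1 time each. Over all 975 narrow loci the median G+C was 65.0% and the median CpG ratio 0.74, close to the 64.0% and 0.74 of the 2966 wider loci, and above the 52.7% and 0.38 of 32851 RefSeq promoters of the same length. A motif match describes letters and not a bound site. CACGTG stood in 9.23% of narrow windows, 6.44% of wider ones and 7.15% of all promoters. TCCCGC stood in 35%, 33.8% and 20.0% of them, and TCACACC in 4.00%, 2.63% and 3.98%. Of 40 loci with PCGF6 and without H3K27me3 or PCGF2 outside chromosome 11, 8 held CACGTG (20.0%, 95% Wilson interval over loci 10.5 to 34.8).

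The narrow loci were also the low RING1B peaks. Their width ran from 389 to 799 bp with a median of 603 bp, against 1592 bp for wider loci. The peak score is −log10 of the MACS2 p-value, and peaks were listed from a score of 10. The narrow loci had a median RING1B score of 13.0 (10.1 to 69.4), the wider ones 35. A score under 20 was found at 860 of 975 narrow loci (88.2%) and at 768 of 2966 wider loci (25.9%). Just inside the limit lay 2 loci of 799 bp, chr7:19279229-19280027 with a score of 14.9 and chr1:180482933-180483731 with 16.3. Just outside lay 2 loci of 800 bp, chr9:21038422-21039221 with 10.3 and chr16:11066381-11067180 with 11.1. The limit therefore cuts through similar peaks. Most narrow loci were promoters: 744 (76.3%) overlapped the region 2.5 kb to either side of a start site, 68 lay on an exon, 102 in an intron and 61 between genes. The median distance of their centre to a start site was 394 bp, and 170 (17.4%) lay within 10 kb of a wider locus.

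Chromosome 11 held more narrow loci than any other chromosome, and these loci behaved differently, so values are given with and apart from it. It held 229 of 975 narrow loci (23.5%) and 479 of 2966 wider loci (16.1%). Of its own 708 RING1B loci 32.3% were narrow, against 16.1% on chromosome 18 to 34.6% on chromosome 15 among the other autosomes. Its share of all RING1B peaks was 12.5% in Parental −OHT cells, 18% in RING1B WT +OHT cells, 66.8% of 1287 peaks in RING1B I53S +OHT cells and 82.6% of 690 peaks in Parental +OHT cells. RNA levels moved with this: in −OHT cells the median gene on chromosome 11 was higher than in Eed fl/fl −OHT cells by a log2 difference of 0.31 (Parental), 0.33 (RING1B WT) and 0.28 (I53S), against −0.02 for chromosome 1 in Parental cells. Chromosome 8 was lower by −0.58 in Parental cells. DNA copy number was not measured, peaks were called against an input from another ESC line (E14), and the part of either in these loci was not tested.

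**Figure D1:**
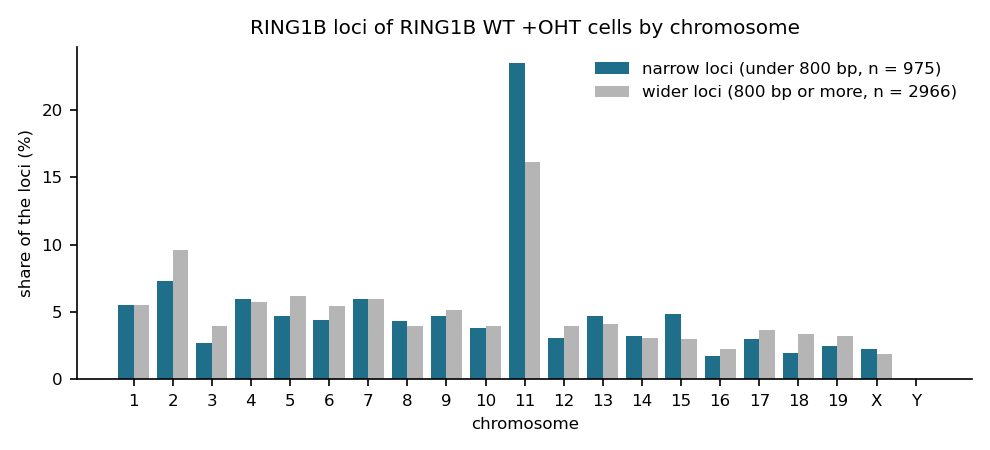
Share of the 975 narrow loci (blue bars) and of the 2966 wider loci (grey bars) on each chromosome, in percent of each set. Chromosome 11 holds 23.5% of narrow and 16.1% of wider loci, and no other chromosome reaches 10%.

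The narrow loci on chromosome 11 mostly lacked Polycomb marks. Of the 229, 142 (62.0%) had no H3K27me3, PCGF2, PCGF6 or RYBP peak in Parental −OHT cells, against 44 of 746 elsewhere (5.90%). RING1B itself had a peak in Parental −OHT cells at 28.4% of them and at 90.6% of the loci elsewhere. After deletion of RING1B the order turned: a RING1B peak was called in Parental +OHT cells at 18.3% on chromosome 11 and 0.938% elsewhere, and in I53S +OHT cells at 19.7% and 2.28%. Wider loci of chromosome 11 shared this. Of 37 wider loci with a RING1B peak in Parental +OHT and not in Parental −OHT cells, 2 lay outside chromosome 11. Of 59 with one in I53S +OHT and not in Parental −OHT cells, 2 lay outside it. The narrow loci of chromosome 11 were also poorer in CpG, with a median ratio of 0.31 against 0.78, and fewer lay at promoters (60.7% against 81.1%). The Per1 locus is of this kind, with RING1B scores of 13.7 in Parental −OHT, 11.9 in WT +OHT and 13.8 in I53S +OHT cells, so that a RING1B peak of like score was listed with endogenous, WT and I53S RING1B. The Per1 locus did have an H2AK119ub1 peak in WT +OHT cells, with a score of 25.4. Per1 encodes a repressor of the circadian clock.

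Outside chromosome 11, the narrow loci carried the same Polycomb proteins as the wider ones, at a smaller share of loci for most antibodies. Of 746, 662 (88.7%) had H3K27me3 or PCGF2 in Parental −OHT cells, 40 (5.36%) had PCGF6 and neither of those, none had RYBP alone and 44 (5.90%) had none of the 4. Over all 975 the counts were 731 (75%), 55 (5.64%), 3 and 186. PCGF6 without H3K27me3 or PCGF2 was rare at wider loci (20 of 2966, 0.674%, 0.437 to 1.04), and the interval of the narrow share (4.36 to 7.27) lies above that of the wider share. Intervals here and below count loci, treat them as independent and do not cover the spread between libraries. A missing peak says that the library did not reach the score of 10 and not that the protein was absent.

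Single loci show how the classes look. At Nr2f1, which encodes the orphan nuclear receptor COUP-TF1, the RING1B score was 70.2 in Parental −OHT cells and 69.4 in WT +OHT cells, with no peak in I53S cells. The same locus carried SUZ12 at 430.2 and PCGF2 at 182.0, and neither PCGF6 nor RYBP. SUZ12 at Nr2f1 stood at 19.9 in I53S cells. A wider RING1B locus began 639 bp away. At Cops7a, which encodes a COP9 signalosome subunit, RING1B stood at 67.3 in Parental −OHT, 27.1 in WT +OHT and 10.1 in I53S +OHT cells. PCGF6 at Cops7a reached 578.2 in Parental −OHT and 143.0 in I53S +OHT cells, RYBP 55.3, and no PCGF2, H3K27me3 or SUZ12 peak was listed. At Bves, which encodes a membrane protein of muscle and epithelia, RING1B stood at 23.7 in Parental −OHT and 15.4 in WT +OHT cells, with SUZ12 at 84.7 as its companion.

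The other loci among the 10 with the highest RING1B scores were of both kinds. PCGF2 without PCGF6 was listed at an intergenic locus of chromosome 9 (chr9:89879389-89880121, RING1B score 59.3), at 2410017I17Rik and Gm10499 (52.6) and at Oxt (44.3), the oxytocin gene. The locus at Gm26917 and Gm42418 (38.5) stood apart, with SUZ12 at 1048.4 in Parental −OHT and 821.5 in I53S +OHT cells. Its scores for PCGF2 (319.7) and RYBP (127.3) in Parental −OHT and H2AK119ub1 (190.8) in WT +OHT cells were also the highest of the 10. No H3K27me3 peak was listed there in Parental −OHT cells. Each input with a peak list had a peak at 3 of the 276 loci with PCGF2 and PCGF6 outside chromosome 11, the group of this locus. Background signal at this locus was not tested. PCGF6 was listed beside PCGF2 at Ddx4 (PCGF6 517.6), Kbtbd6 (365.9), Gm960 (261.0), Gm26917 and Gm42418 (84.6), Gm16425 and Gm27852 (36.1) and Tmcc3 (14.3). In I53S +OHT cells, whose PCGF6 list held 2377 peaks against 7882 in Parental −OHT cells, PCGF6 scores were 218.0 at Ddx4, 200.1 at Gm960, 47.1 at Kbtbd6 and 39.6 at Gm16425 and Gm27852. No PCGF6 peak was listed there at Tmcc3 or at Gm26917 and Gm42418. Of these 10 loci, Ddx4 had a RING1B peak in I53S cells (14.3) and the others had none.

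Among the loci with H3K27me3 or PCGF2, those with the highest RING1B scores in Parental −OHT cells lay close to wider loci. Fzd2, a Wnt receptor gene, had a RING1B score of 324.8 in Parental −OHT and 10.5 in WT +OHT cells, 1013 bp from a wider locus. An exonic locus (chr1:74947976-74948735) had 219.3 and 11.6, 479 bp from one. C130021I20Rik had 199.3 and 16.8, 547 bp from one. Next to Cops7a among loci with PCGF6 stood Sec1 (PCGF6 317.1 in Parental −OHT and 126.7 in I53S +OHT cells) and Cyp2r1 (240.9 and 134.4), which encodes a vitamin D 25-hydroxylase.

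**Figure D2:**
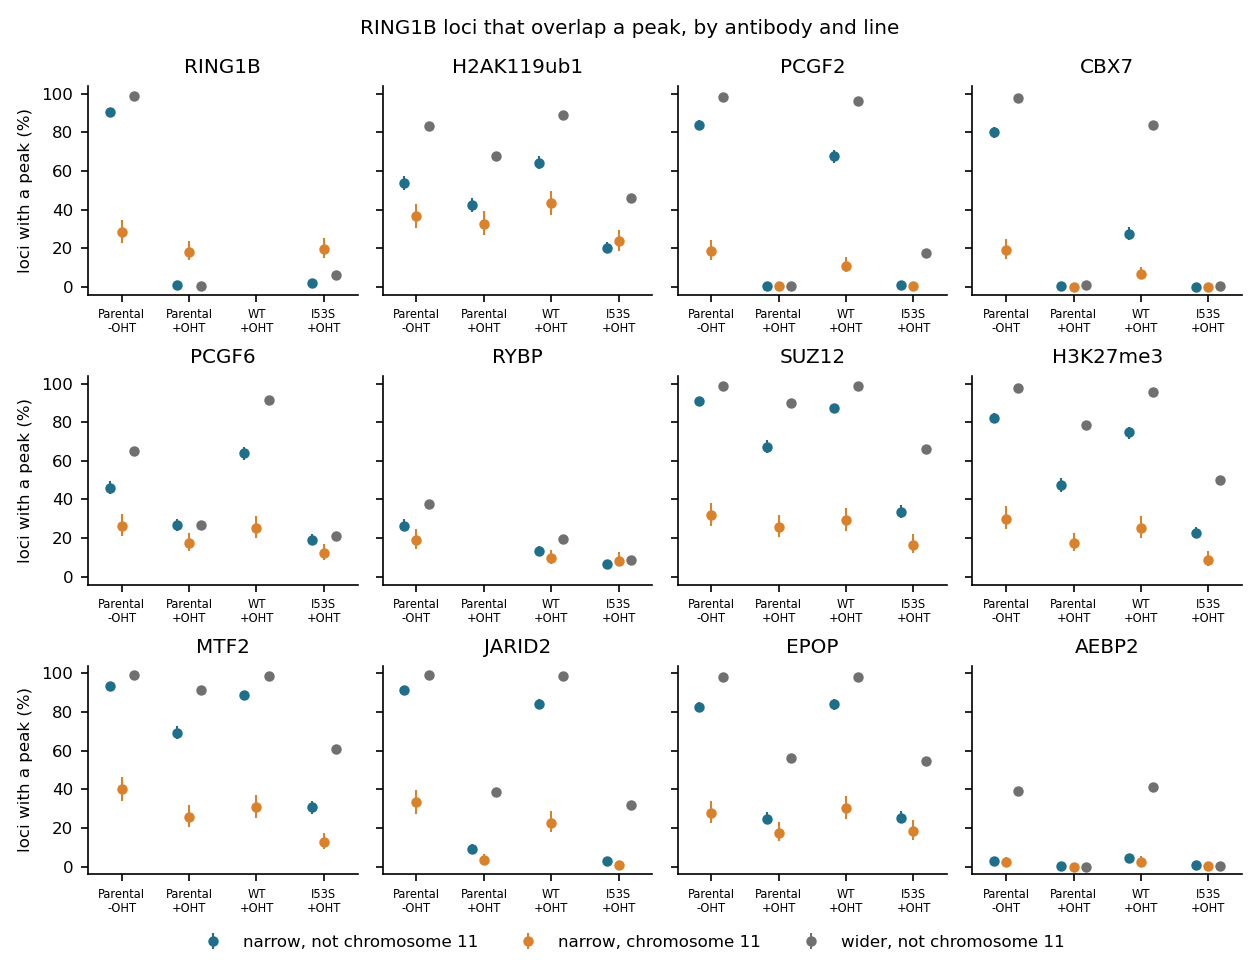
Percent of RING1B loci that overlap a peak of each antibody in Parental −OHT, Parental +OHT, RING1B WT +OHT and RING1B I53S +OHT cells at 72 h, for narrow loci outside chromosome 11 (blue), narrow loci on chromosome 11 (orange) and wider loci outside it (grey), with 95% Wilson intervals over loci. MTF2 and JARID2 show replicate 1, RYBP has no Parental +OHT library, and RING1B in WT +OHT cells is left out because it defines the loci.

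H2AK119ub1, the product of RING1B, was found at fewer narrow than wider loci in every line. Outside chromosome 11 its peaks covered 53.6% of narrow loci in Parental −OHT, 42.2% in Parental +OHT, 64.3% in RING1B WT +OHT and 20.2% in I53S +OHT cells. In all 4 libraries the wider loci stood higher. Of the narrow loci with H2AK119ub1 in WT +OHT cells, 139 of 480 (29.0%) had it in I53S +OHT cells, against 1119 of 2212 wider loci (50.6%), a difference of −21.6 percentage points (95% Newcombe interval −26.0 to −16.9). Of the 400 narrow loci with the mark in Parental −OHT cells, 245 (61.2%) had it in Parental +OHT cells and 123 (30.8%) in I53S +OHT cells. H2AK119ub1 therefore had peaks at narrow loci in cells whose RING1B peaks there were nearly gone (0.938% of loci). Peak lists hold no spike-in scaling, so levels of the mark cannot be read from these shares. By western blot the study reports global loss of the mark in both Parental +OHT and I53S +OHT cells. Its spike-in scaled ChIP-seq showed complete loss at PRC1 target loci in I53S cells.

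Peaks of PRC2 and its mark were kept from WT to I53S cells at fewer narrow than wider loci. Among RING1B peaks of like score, the share of all loci with such a peak in I53S cells differed less. Kept shares were not computed by score. SUZ12 outside chromosome 11 was at 91.0% of narrow loci in Parental −OHT, 67.4% in Parental +OHT, 87.4% in WT +OHT and 33.6% in I53S +OHT cells. It was kept from WT to I53S at 249 of 652 narrow loci (38.2%) and 1649 of 2457 wider loci (67.1%), a difference of −28.9 points (−33.0 to −24.7). H3K27me3 was at 82.4%, 47.5%, 74.7% and 22.8% of narrow loci in the same 4 libraries. From WT to I53S, 170 of 557 narrow loci (30.5%) and 1252 of 2374 wider loci (52.7%) kept it, −22.2 points (−26.4 to −17.8). Both readouts thus had a peak at fewer narrow loci in I53S than in Parental +OHT cells, between 2 libraries each. The SUZ12 list held 7156 peaks in WT and 3475 in I53S cells, and the H3K27me3 list 19761 and 18909.

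Canonical PRC1 was found in RING1B WT +OHT cells at fewer narrow than wider loci. PCGF2 was at 83.9% of narrow loci outside chromosome 11 in Parental −OHT, 0.536% in Parental +OHT, 67.7% in WT +OHT and 1.07% in I53S +OHT cells. Of the narrow loci with PCGF2 in WT +OHT cells 8 of 505 (1.58%) kept it in I53S cells, against 436 of 2393 wider loci (18.2%), −16.6 points (−18.4 to −14.5). CBX7 was at 80.2% of narrow loci in Parental −OHT and 27.5% in WT +OHT cells. It was kept from Parental −OHT to WT +OHT at 204 of 598 narrow loci (34.1%) and 2080 of 2430 wider loci (85.6%), −51.5 points (−55.4 to −47.3). In I53S +OHT cells CBX7 was listed at 1 of 746 narrow loci and in Parental +OHT cells at 2. The CBX7 library of WT +OHT cells held 2648 peaks and that of Parental −OHT cells 5140, so the smaller list moves with this loss, and its part was not tested.

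PCGF6 was also at fewer narrow than wider loci in Parental −OHT and WT +OHT cells. Its kept share in Parental +OHT and I53S +OHT cells, however, was higher at narrow loci. Outside chromosome 11 it was at 46.2% of narrow loci in Parental −OHT, 26.7% in Parental +OHT, 64.1% in WT +OHT and 19.0% in I53S +OHT cells. Of 2487 wider loci, 1621 had PCGF6 in Parental −OHT and 2271 in WT +OHT cells. From Parental −OHT to Parental +OHT cells, 194 of 345 narrow loci kept PCGF6 (56.2%), against 642 of 1621 wider loci (39.6%), a difference of +16.6 points (10.8 to 22.3). From Parental −OHT to I53S +OHT cells 139 of 345 narrow loci (40.3%) and 510 of 1621 wider loci (31.5%) kept it, +8.8 points (3.3 to 14.5). From Parental −OHT to WT +OHT cells narrow loci kept PCGF6 less often, at 94.5% against 98.8%, −4.3 points (−7.3 to −2.3). RYBP, shared by variant PRC1 forms, was at 26.5% of narrow loci in Parental −OHT, 13.1% in WT +OHT and 6.43% in I53S +OHT cells. Its kept share from Parental −OHT to I53S cells was 22.7% at narrow and 21.3% at wider loci, a difference of 1.5 points with an interval that holds 0 (−4.5 to 8.3). From WT +OHT to I53S +OHT cells, 40 of 98 narrow loci (40.8%) and 144 of 485 wider loci (29.7%) kept RYBP, +11.1 points (1.0 to 21.8), and 29.5% of narrow and 22.9% of wider loci kept PCGF6, +6.6 points (2.4 to 11.2). RING1B, by contrast, was kept in I53S cells at 8 of 676 narrow loci (1.18%) and 153 of 2463 wider loci (6.21%).

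Among RING1B peaks of like height the gap between narrow and wider loci was smaller for some readouts. Among loci outside chromosome 11 with RING1B scores from 10 to 15, PCGF2 in Parental −OHT cells was at 81.2% of 468 narrow and 90.0% of 259 wider loci, and SUZ12 in I53S cells at 29.3% and 28.6%. H2AK119ub1 in WT +OHT cells, however, was at 59.6% of these narrow loci (55.1 to 64.0) and 80.3% of these wider loci (75 to 84.7). With scores from 20 to 40, PCGF2 stood at 91.9% of 99 narrow and 98.9% of 785 wider loci. SUZ12 in I53S cells stood at 41.4% and 53.5% of them. H3K27me3 in I53S cells was at 19.9% of narrow and 26.3% of wider loci with scores from 10 to 15, 26.7% and 28.0% with scores from 15 to 20, and 30.3% and 36.4% with scores from 20 to 40, against 22.8% and 50.3% over all. Among peaks of like score, SUZ12 and H3K27me3 in I53S cells thus differed by less than over all loci. The H2AK119ub1 gap was smaller at scores of 20 to 40 (76.8% and 85.4%, with intervals that overlap), and a longer locus also offers more bases to overlap.

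The narrow loci outside chromosome 11 were then split by their PCGF2 and PCGF6 peaks in Parental −OHT cells, a split made after the data had been seen. PCGF2 without PCGF6 was found at 350 loci, both at 276, PCGF6 without PCGF2 at 69 and neither at 51. PCGF6 was kept more often where PCGF2 was missing: its peak was listed in Parental +OHT cells at 89.9% of loci with PCGF6 alone and 47.8% of loci with both, and in I53S +OHT cells at 75.4% and 31.5%. In WT +OHT cells the shares were 91.3% and 95.3%, and 42.9% of the loci with PCGF2 alone also had a PCGF6 peak in that library. RYBP in Parental −OHT cells was at 71.0% of loci with PCGF6 alone, 47.5% of loci with both and 4.86% of loci with PCGF2 alone.

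The listing of H2AK119ub1 peaks also differed between these groups. At loci with PCGF6 alone its share was 69.6% in Parental −OHT, 82.6% in Parental +OHT, 71.0% in WT +OHT and 43.5% in I53S +OHT cells. At loci with PCGF2 alone the shares were 57.1%, 32.3%, 68.9% and 14.6%. The 95% intervals of these groups do not overlap in Parental +OHT (72.0 to 89.8 against 27.6 to 37.4) or I53S +OHT cells (32.4 to 55.2 against 11.3 to 18.7). These are unscaled peak calls, and the study reports the mark as lost in both, so they do not show that it persisted. H3K27me3 ran opposite, at 32.6% of loci with PCGF2 alone and 2.90% of loci with PCGF6 alone in I53S cells, from 94.0% and 42.0% in Parental −OHT cells. At loci with neither, RING1B had a peak at 15.7% in Parental −OHT, 9.80% in Parental +OHT and 19.6% in I53S +OHT cells.

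**Figure D3:**
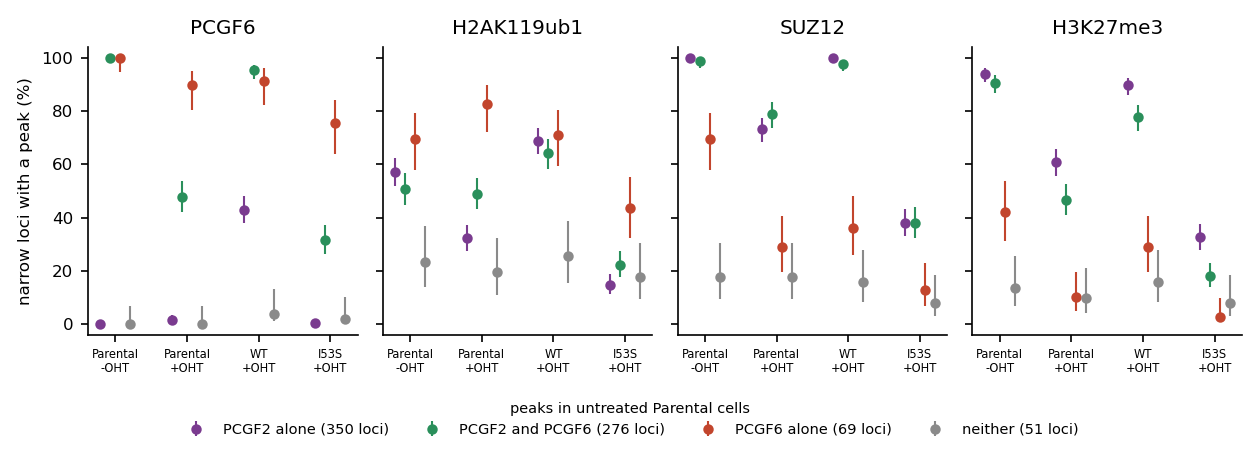
Percent of narrow loci outside chromosome 11 with a PCGF6, H2AK119ub1, SUZ12 or H3K27me3 peak in 4 libraries, grouped by PCGF2 and PCGF6 peaks in Parental −OHT cells, with 95% Wilson intervals over loci. PCGF6 in Parental −OHT cells defines the groups, and the loci with PCGF6 alone keep PCGF6 at 89.9% in Parental +OHT and 75.4% in I53S +OHT cells.

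The PRC2 accessory subunits differed among themselves. Outside chromosome 11, JARID2 was at 91.2% of narrow loci in Parental −OHT, 36.7% in Parental +OHT at 48 h and 9.25% at 72 h. In the 2 WT +OHT libraries at 72 h it was at 84.2% and 81.2% of narrow loci, and in the 2 I53S libraries at 2.82% and 0.938%, so the lines did not overlap. Between replicate 1 libraries 20 of 628 narrow loci (3.18%) and 788 of 2450 wider loci (32.2%) kept JARID2 in I53S cells, −29.0 points (−31.2 to −26.5). With replicate 2 of the I53S line the shares were 0.955% and 11.7%. MTF2, the PRC2.1 subunit that binds CpG-rich DNA, was at 88.6% and 85.5% in the 2 WT libraries and at 30.6% and 64.1% in the 2 I53S libraries. The I53S replicates thus lay further apart from each other, with 3091 and 7546 peaks in all, than the higher of them lay from WT. In I53S cells at 48 h MTF2 stood at 75.5% and JARID2 at 2.95%. Before OHT, JARID2 was at 82.3% of narrow loci in I53S and 84.7% in WT cells, and MTF2 at 88.2% and 89.9%.

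EPOP was at 82.8% of narrow loci outside chromosome 11 in Parental −OHT, 24.8% in Parental +OHT, 84.0% in WT +OHT and 25.3% in I53S +OHT cells. AEBP2 hardly reached narrow loci, at 2.95% in Parental −OHT and 4.69% in WT +OHT cells, against 39.2% of wider loci in Parental −OHT cells. Without MTF2, PRC2 peaks were kept at fewer narrow than wider loci. In Parental −OHT cells 279 of 679 narrow loci (41.1%) and 1843 of 2460 wider loci (74.9%) kept SUZ12 in MTF2 KO cells, −33.8 points (−37.8 to −29.7). H3K27me3 was kept there at 79 of 615 (12.8%) and 984 of 2429 (40.5%). The MTF2 KO lists were shorter, with 4170 against 9321 SUZ12 peaks and 7852 against 18245 H3K27me3 peaks, and SUZ12 peaks in Parental −OHT cells had a median score of 111 at narrow and 266 at wider loci. The part of either in this difference was not tested. In RING1B WT +OHT cells SUZ12 was kept at 43.1% of narrow and 78.5% of wider loci. After OHT, SUZ12 was at 22 of 746 narrow loci in Parental MTF2 KO cells and at 9 in I53S MTF2 KO cells. The 4 input libraries, which set the background, had a peak at 3 or 4 of the 975 narrow loci.

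The RNA of the genes at narrow loci was then compared before and after OHT. Of the 744 narrow promoter loci, 175 lie at 2 or more genes. Promoters of 808 genes overlapped narrow loci and no wider locus (632 protein coding), 115 genes had both kinds and 2973 had wider loci alone. In Parental −OHT cells the 808 genes had a median level of 1.76 CPM (counts scaled to the library's total, not per length), 1.28 for those outside chromosome 11 and 20.9 for the 139 on it, against 0.371 for genes with wider loci alone. The 12 libraries of the Parental, WT and I53S lines held 8140106 to 12743460 counted reads and the 4 Eed fl/fl libraries 6957248 to 9443814. Rnf2, which encodes RING1B, stood at 200 and 257 CPM in Parental −OHT and 144 and 168 CPM in Parental +OHT cells, a drop smaller than the fold limit (log2 −0.55, SE 0.20, adjusted p = 0.035). Reads were counted over the whole gene, so this checks the deletion only in part, and Ring1 stood at 1.04 to 4.00 CPM in the 12 libraries. Eed stood at 259 and 172 CPM without and 67.1 and 41.6 CPM with OHT in Eed fl/fl cells (log2 −1.95, SE 0.32, adjusted p = 0.077), so the target itself was not called there.

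Some of the genes at narrow loci rose when RING1B was deleted or catalytically inactive. Of 808 genes, 582 passed the filter on low counts, and they had to be expressed in at least 1 group to do so. A call needed a log2 fold change of 1.5 or more in either direction and an adjusted p under 0.05 in edgeR's quasi-likelihood test. In Parental cells OHT raised 206 of the 582 (35.4%) and lowered 3, against 15.1% raised and 1.83% lowered among all 18154 genes tested. In I53S cells it raised 171 (29.4%) and lowered 3, against 12.8% and 1.04%. In RING1B WT cells it raised 23 (3.95%) and lowered 1, against 1.34% and 0.0386%. Genes with wider loci alone rose more often in Parental cells (1182 of 2022, 58.5%). The median log2 fold change of the narrow genes was 0.87 in Parental, 0.87 in I53S and 0.29 in WT cells, against 0.03, 0.01 and 0.02 over all genes. The counts depended on the filter: with at least 10 counts in every library 393 genes were tested, of which 88 rose in Parental, 65 in I53S and 9 in WT cells. In bulk RNA, fewer cells that express a gene and less RNA per cell cannot be told apart.

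Summed RNA of marker genes of other cell types was higher with OHT in the same comparison. The summed level of 8 pluripotent markers was 5280 to 6370 CPM in Parental −OHT and 3240 to 3350 CPM in Parental +OHT cells, and none of the 8 was under 1 CPM in either group. The 6 primitive endoderm markers summed to 3.09 to 3.54 and 48.7 to 50.8 CPM, with 5 of 6 under 1 CPM before OHT and none after. The 6 trophoblast markers summed to 159 to 188 and 375 to 377 CPM, with 3 and 1 of them under 1 CPM. The 6 fibroblast markers summed to 11.9 to 14.1 and 46.4 to 49.5 CPM, with 4 and 3 of them under 1 CPM. In I53S cells the primitive endoderm sum was 4.63 to 4.70 before and 38.6 to 38.7 CPM after OHT, in WT cells 3.75 to 4.54 and 8.83 to 12.6 CPM. Of the 6 primitive endoderm markers 4 have wider RING1B loci alone and Gata4 has both kinds. The part of other cell types in the changes of narrow-locus genes was not tested. No gene of the pluripotency list (19 genes) had a narrow locus.

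**Figure D4:**
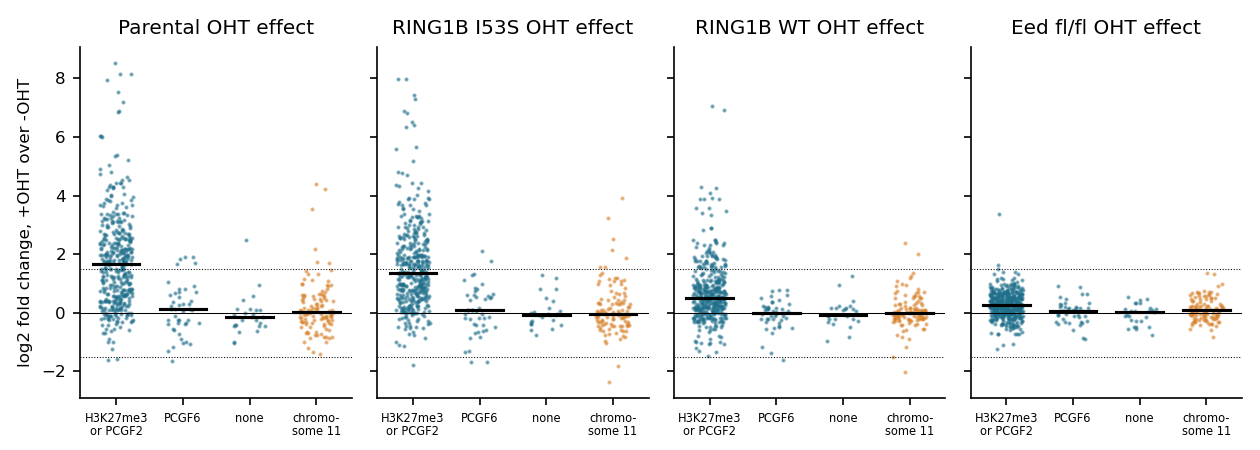
Log2 fold change of RNA with OHT for each tested gene at narrow loci alone, in 4 lines, by class of the locus in Parental −OHT cells outside chromosome 11 (blue) and for chromosome 11 (orange). Thick lines are medians and dotted lines the fold limit of 1.5, and the Parental and I53S genes with H3K27me3 or PCGF2 sit higher than the other classes, with medians of 1.67 and 1.35.

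The rise was most frequent at loci with H3K27me3 or PCGF2. In Parental cells 201 of 442 such genes were raised (45.5%, interval over genes 40.9 to 50.1), against 4 of 63 with PCGF6 and neither of those (6.35%, 2.5 to 15.2) and 1 of 75 with none (1.33%, 0.236 to 7.17). On chromosome 11, 5 of 112 genes were raised (4.46%), and elsewhere 201 of 470 (42.8%). Split by peaks outside chromosome 11, Parental cells raised 96 of 165 genes with PCGF2 alone (58.2%), 87 of 203 with PCGF2 and PCGF6 (42.9%), 16 of 71 with PCGF6 alone (22.5%) and 2 of 31 with neither (6.45%). I53S cells raised 73 (44.2%), 78 (38.4%), 14 (19.7%) and 0 of the same genes, and WT cells 10 (6.06%), 9 (4.43%), 3 (4.23%) and 0. Over all genes 15.1% rose in Parental, 12.8% in I53S and 1.34% in WT cells. For genes with PCGF6 alone the interval holds that share in Parental (14.4 to 33.5) and I53S cells (12.1 to 30.4).

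Parental and I53S cells raised largely the same narrow-locus genes. Both raised 152, which is 73.8% of the Parental and 88.9% of the I53S genes, and all 23 genes raised in WT cells were among both sets. Over all genes 2748 were raised in Parental, 2323 in I53S and 244 in WT cells. Their overlap was not computed, so the sharing cannot be read as particular to narrow loci. A test of the difference between the I53S and Parental effects called none of the 582 genes, nor any of the 18154 genes (0% higher and 0% lower), with a median difference of −0.06. A miss of the threshold with 2 replicates does not show equal effects. The WT effect was lower than the Parental effect for 19 genes and higher for 3 (1.23% lower and 0.837% higher over all genes), with a median difference of −0.49. It was lower than the I53S effect for 3 and higher for 0 (0.226% and 0.204% over all genes).

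The raised genes with the lowest adjusted p in Parental cells were Tdrd1, Slc7a8, Mael, Dusp9, Tcam1, Prtn3, Car4 and Eif4e3, all at loci with H3K27me3 or PCGF2. Slc7a8, an amino acid transporter, stood at 5.02 and 3.59 CPM in Parental −OHT and at 42.5 and 46.0 CPM in Parental +OHT cells. In I53S cells Slc7a8 went from 4.77 and 4.43 to 26.4 and 31.2 CPM, and in WT cells from 4.54 and 3.75 to 9.13 and 11.3 CPM. The WT +OHT libraries thus lay between the −OHT libraries and the other +OHT libraries. Its log2 fold change was 3.34 (SE 0.27, adjusted p = 4e-08) in Parental, 2.65 (SE 0.26, 9.5e-07) in I53S and 1.31 (SE 0.28, 0.016) in WT cells, the last short of the fold limit.

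Dusp9, a phosphatase that restrains ERK signalling, was already expressed at 55.1 and 51.6 CPM in Parental −OHT cells and stood at 260 and 278 CPM after OHT. The I53S libraries moved from 65.8 and 44.7 to 202 and 214 CPM, and the WT libraries from 43.5 and 38.1 to 97.4 and 103 CPM. The groups with and without OHT did not overlap in any of the 3 lines. The log2 fold change of Dusp9 was 2.34 (SE 0.20) in Parental, 1.92 (SE 0.20) in I53S and 1.32 (SE 0.20) in WT cells, and adjusted p was 9.2e-08, 1.3e-06 and 0.0023.

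Car4, a carbonic anhydrase, and Tcam1 were among the few raised genes of chromosome 11. Car4 went from 2.30 and 1.11 to 36.3 and 30.1 CPM in Parental cells (log2 4.22, SE 0.40) and from 2.08 and 1.54 to 25.8 and 29.7 CPM in I53S cells (log2 3.92, SE 0.39). In WT +OHT cells Car4 stood at 1.59 and 4.16 CPM. Tcam1 went from 0.823 and 0.618 to 17.2 and 14.1 CPM in Parental cells (log2 4.39, SE 0.39), and the WT effect minus the Parental effect was −3.21 on the log2 scale (SE 0.56, adjusted p of the difference = 0.004). Both had H3K27me3 or PCGF2 at their locus, unlike most narrow loci of that chromosome.

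Eif4e3, which encodes a cap-binding protein, and Prtn3, a serine protease of neutrophils, were low before OHT. Eif4e3 stood at 2.88 and 2.47 CPM in Parental −OHT, 24.3 and 23.5 CPM in Parental +OHT and 4.57 and 6.12 CPM in WT +OHT cells. Prtn3 stood at 1.89 and 2.23 CPM, 32.3 and 28.6 CPM and 4.07 and 4.41 CPM in the same groups. The Parental +OHT libraries lay far above the WT +OHT libraries for both genes. In I53S cells Lbhd2 and Rassf4 took the place of Tcam1 and Eif4e3 among the 8 raised genes with the lowest adjusted p. Lbhd2 rose from 0.231 and 0 to 23.2 and 25.5 CPM and Rassf4, a RAS association domain protein, from 4.62 and 2.7 to 31.9 and 26.7 CPM (log2 2.99, SE 0.30, adjusted p = 9.6e-07).

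Of the gene lists used, that of germ cell and meiosis genes had the most members with a narrow locus alone. Of a list of 42, 10 had narrow loci alone (Ddx4, Hormad1, Mael, Majin, Smc1b, Spo11, Stk31, Sycp2, Tdrd1 and Tdrd5), 8 had wider loci alone and 24 had no RING1B locus. Of the 10, 9 were tested. Ddx4, Mael, Smc1b, Stk31, Sycp2 and Tdrd1 rose in Parental cells, 5 of these (without Stk31) in I53S cells, and Mael and Tdrd1 in WT cells. The median log2 fold change was 1.73 in Parental, 1.76 in I53S and 0.99 in WT cells, and over the 41 tested genes of the whole list, of which 28 rose in Parental cells, 2.18, 1.75 and 1.24. The list was chosen with earlier results of these data known.

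PCGF6 marked all 10 of these loci. Its score in Parental −OHT cells ran from 32.5 at Tdrd5 to 517.6 at Ddx4 with a median of 214, against a median of 23.0 over the 405 narrow loci with a PCGF6 peak. It was listed at 9 of the 10 in Parental +OHT cells (not at Tdrd5), 10 of 10 in WT +OHT and 9 of 10 in I53S +OHT cells, against 24.5%, 55% and 17.4% of all narrow loci. Of the 405 narrow loci with PCGF6 in Parental −OHT cells, 57.8%, 92.8% and 41.2% had it in the same libraries. In I53S cells the PCGF6 scores at the 9 listed loci were 59.6 to 218 with a median of 88.9. RYBP was at 10 of 10 in Parental −OHT cells, against 24.8% of all narrow loci. H3K27me3 was at 9 of 10 with scores of 11.3 to 37.9 and SUZ12 at 8 of 10, near their shares of all narrow loci (70.2% and 77.1%). In Parental −OHT cells the median SUZ12 score was 25.1 at these loci and 111 over narrow loci with a peak, and that of H3K27me3 22.1 and 24.8. In I53S +OHT cells H3K27me3 and SUZ12 were at 0 of 10, where 19.5% and 29.6% of all narrow loci had them. The part of the low SUZ12 scores in this was not tested. The shares of all narrow loci include chromosome 11, where none of the 10 lies. H2AK119ub1 was at 7 of 10 in Parental −OHT, 8 in Parental +OHT, 6 in WT +OHT and 3 in I53S +OHT cells, against 49.6%, 40%, 59.4% and 21% of all narrow loci.

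Ddx4, the germ cell RNA helicase known as VASA, stood at 14.2 and 25.3 CPM in Parental −OHT and 91.7 and 108 CPM in Parental +OHT cells. It moved from 14.6 and 22.8 to 56.9 and 82.6 CPM in I53S cells and from 18.4 and 22.2 to 30.4 and 49.2 CPM in WT cells, so that OHT libraries were above their controls in each line. The log2 fold change was 2.35 (SE 0.29, adjusted p = 6e-06), 1.91 (SE 0.29, 7.1e-05) and 0.99 (SE 0.29, 0.078). In Eed fl/fl cells Ddx4 stood at 27.2 and 21.1 CPM without and 26.4 and 18.6 CPM with OHT, and these groups overlapped.

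Tdrd1, a tudor protein of the piRNA pathway, went from 0.165 and 0.742 to 27.8 and 25.5 CPM in Parental cells (log2 6.01, SE 0.48, adjusted p = 3.7e-08) and from 1.16 and 1.06 to 19.5 and 25.3 CPM in I53S cells. In WT cells Tdrd1 went from 0.951 and 0.662 to 2.58 and 5.14 CPM, and the WT minus the Parental effect was −3.77 (SE 0.77, adjusted p of the difference = 0.011). Mael, which acts in transposon silencing in the testis, went from 11.4 and 12.4 to 97.0 and 106 CPM in Parental, from 10.2 and 8.58 to 47.4 and 65.7 CPM in I53S and from 5.71 and 6.62 to 15.3 and 26.8 CPM in WT cells. Its rise in WT cells was called (log2 1.78, SE 0.27, adjusted p = 0.0027), but not without RING1B WT +OHT replicate 2 (log2 1.32). The call of Tdrd1 in WT cells was lost without replicate 2 of WT −OHT or of WT +OHT and in a fit of the 4 WT libraries, with log2 values of 1.67 to 2.25. The difference between the WT and Parental effects on Mael was −1.31 (SE 0.37, adjusted p = 0.07).

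Smc1b, the meiotic cohesin subunit, went from 11.8 and 11.1 to 38.7 and 37.5 CPM in Parental cells. Sycp2, of the synaptonemal complex, went from 2.14 and 0.865 to 15.8 and 12.7 CPM, and Stk31, a kinase of germ cells, from 18.8 and 21.9 to 62.6 and 64.9 CPM. Hormad1, which acts in meiotic recombination, stood at 34.2 and 45.6 CPM before and 54.0 and 63.5 CPM after OHT (log2 0.56, SE 0.25, adjusted p = 0.093). Majin, which tethers telomeres in meiosis, stood at 3.37 and 5.19 and at 5.04 and 5.89 CPM. Tdrd5 stood at 2.22 and 4.82 and at 8.46 and 6.48 CPM (log2 1.12, SE 0.38, adjusted p = 0.028), below the fold limit. Spo11, the meiotic recombination nuclease, stayed under 1 CPM in the 12 libraries and was not tested there.

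**Figure D5:**
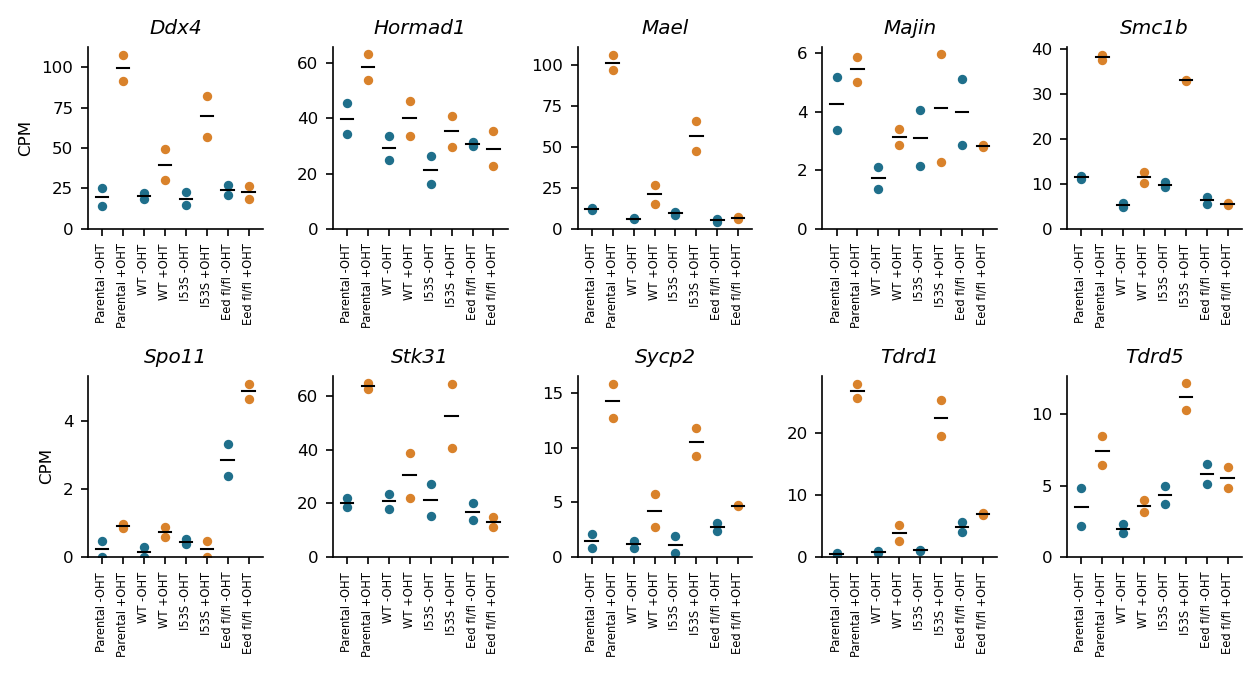
RNA level in CPM (not per length) of the 10 germ cell and meiosis genes at narrow loci in each library, without OHT (blue) and with OHT (orange), with the mean of 2 replicates as a line. Tdrd1, Mael, Smc1b, Sycp2 and Ddx4 stand highest in Parental +OHT and I53S +OHT cells, lower in WT +OHT cells. In Eed fl/fl cells with OHT, Sycp2 and Tdrd1 lie at 4.67 to 7.13 CPM, just above their controls.

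Few narrow-locus genes fell, and most of those calls sat close to the fold limit. In Parental cells these were Sinhcaf, Vim and Socs2. Sinhcaf, a subunit of the SIN3 deacetylase complex in ESCs, went from 161 and 159 to 58.1 and 44.2 CPM (log2 −1.65, SE 0.20, adjusted p = 4e-06), and in WT cells from 142 and 186 to 135 and 127 CPM. The WT effect on Sinhcaf was higher than the Parental effect by 1.34 (SE 0.27, adjusted p of the difference = 0.012). Vim, the intermediate filament vimentin, went from 114 and 128 to 41.9 and 39.8 CPM, and Socs2, an inhibitor of cytokine signalling, from 61.5 and 57.2 to 20.9 and 17.7 CPM. Without Parental +OHT replicate 2 Sinhcaf (log2 −1.46) and Socs2 (−1.5 after rounding) were short of the fold limit, as was Vim (−1.45) with at least 10 counts in every library. In I53S cells Atf5 (11.6 and 10.8 to 3.36 and 3.56 CPM), Tmem88 (16.0 and 20.2 to 4.84 and 5.38 CPM) and Gm12592 (1.08 and 1.45 to 0.395 and 0.0867 CPM) fell. Atf5, a stress response transcription factor at a PCGF6 locus, also fell in WT cells, from 6.66 and 7.17 to 2.88 and 1.47 CPM (log2 −1.62, SE 0.37, adjusted p = 0.025). That call of Atf5 was lost in a fit of the 4 WT libraries and without WT −OHT replicate 1, WT −OHT replicate 2 or WT +OHT replicate 2 (log2 −1.66 to −1.25). The call of Gm12592 was lost with DESeq2, in a fit of the 4 I53S libraries and without I53S −OHT replicate 1, I53S −OHT replicate 2 or I53S +OHT replicate 2 (log2 −2.56 to −1.63).

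In RING1B WT cells the 8 raised genes with the lowest adjusted p were Gm4779, Mael, Rassf4, H2-Q7, Psmb8, Lepr, Cpne2 and Gfra3. All 8 were lower in both WT −OHT libraries than in both Parental −OHT libraries. They were picked by their rise over these WT −OHT libraries, which favours low values there, so this describes the choice. Rassf4 went from 1.90 and 2.98 to 9.33 and 10.5 CPM, and stood at 9.05 and 10.9 CPM in Parental −OHT cells. Gm4779 went from 10.8 and 10.8 to 25.1 and 38.8 CPM, and H2-Q7, a class I histocompatibility gene with near-identical relatives whose reads may be shared, from 5.28 and 2.43 to 13.5 and 20.1 CPM. Psmb8, of the immunoproteasome, went from 0.634 and 0 to 3.57 and 7.95 CPM, and Lepr, the leptin receptor, from 1.16 and 0.331 to 4.57 and 3.92 CPM. Cpne2 and Gfra3, a receptor for neurotrophic factors, had no count in WT −OHT cells, and stood at 1.49 and 1.35 CPM and at 1.69 and 1.47 CPM with OHT, so no fold is given. In Parental −OHT cells Cpne2 stood at 1.15 and 0.865 CPM and Gfra3 at 0.0823 and 0.124 CPM. Single libraries decided the count of 24 called genes. Most calls were lost without replicate 2 of RING1B WT −OHT, and likewise without replicate 2 of RING1B WT +OHT, at narrow loci and over all genes alike. The calls of Cpne2, Gfra3, H2-Q7, Lepr and Psmb8 were lost in the former, and those of Gm4779, Mael, H2-Q7 and Psmb8 in the latter.

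In Eed fl/fl cells edgeR called no narrow-locus gene with OHT. Of 638 genes tested 0 rose and 0 fell, against 2 of 25170 raised (0.00795%) and 0 lowered. An unadjusted p under 0.05 was found for 49 narrow-locus genes (7.68%) and 1372 of all genes (5.45%). DESeq2 called 1. Without Eed fl/fl −OHT replicate 2, 11 of 674 narrow-locus genes rose, and 241 of 28368 over all genes (0.85%). The median log2 fold change was 0.19, and 0.08 over all genes. Slc7a8 stood at 9.63 and 11 CPM without and 13.8 and 14.1 CPM with OHT, and Mael at 6.13 and 4.4 and at 7.09 and 5.73 CPM. In −OHT cells the median narrow-locus gene was at 4.94 CPM in Eed fl/fl and 1.76 CPM in Parental cells, which are different lines.

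Other gene groups hardly touched narrow loci. Of 54 developmental transcription factors 51 had wider loci alone, and Gata2 and Gata4 had both kinds. Gata2, a factor of blood progenitors, went from 3.87 and 2.23 to 22.7 and 26.3 CPM in Parental cells, and Gata4, of heart and endoderm, from 1.48 and 2.23 to 9.23 and 11.6 CPM. Of 30 PRC1 subunit genes, Auts2 had a narrow locus and stood at 54.4 and 44.6 CPM without and 58.3 and 52.3 CPM with OHT in Parental cells, and Bcor and Pcgf2 had both kinds. Bcor, of the variant PRC1.1, rose from 43.0 and 50.8 to 124 and 146 CPM in Parental cells (log2 1.53, SE 0.19, adjusted p = 6.6e-06) and stood at 45.2 and 51.4 CPM in WT +OHT cells. Pcgf2 stood at 51.2 and 47.2 CPM before and 28.9 and 37.9 CPM after OHT (log2 −0.56, SE 0.20, adjusted p = 0.034), short of the fold limit. Of 17 genes of the MAX and MYC network Mnt, with both kinds, went from 52.1 and 50.1 to 28.2 and 33.3 CPM (log2 −0.73, SE 0.22, adjusted p = 0.013), also short of it. Of the same list Mlx had a narrow locus, on chromosome 11, at 128 and 141 CPM before and 112 and 118 CPM after OHT in Parental cells, and of 22 ribosomal protein genes Rpl19, also on chromosome 11, at 607 and 802 and at 511 and 622 CPM. None of 15 PRC2 subunit genes had one.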

How the data were processed

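Per the study's methods and the submitters' processing notes, the authors aligned ChIP-seq reads with Bowtie 1.2.2 to mm10, removed duplicates and called peaks in each library with MACS2 2.1.1 against an E14 input. The deposited peak lists give a score that is −log10 of the p-value, from 10 upwards, and no read depth, so how far a missing peak reflects depth is unknown. For RNA the authors aligned SMART-seq2 reads with STAR 2.7 and deposited raw counts per gene from featureCounts, without strand, so antisense partners share reads. Columns of the authors' own comparisons were not used.

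Here, any overlap of 1 bp or more between a peak and a locus counted as occupied. A gene belonged to a locus within 2.5 kb of any annotated start, with GENCODE names of GRCm38, and all 55341 gene names in the count table were in the annotation. Counts were tested with edgeR 4.0.16 (TMM, filterByExpr, quasi-likelihood, Benjamini-Hochberg) in R 4.3.3, over all 12 libraries of the 3 lines and over the 4 Eed fl/fl libraries, and standard errors were taken as the fold change divided by the square root of F. Calls needed a log2 fold change of 1.5 or more in either direction and an adjusted p under 0.05. Shares carry 95% Wilson intervals and differences Newcombe intervals. The code was tested on simulated data. DESeq2 1.42.0 and other alternatives were tried.

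Genes were named as the 8 called genes of narrow loci alone that had the smallest adjusted p, per direction and line, and as genes of the fixed lists with a narrow locus. Loci were named as the 10 highest by RING1B score, the 2 nearest 800 bp on each side and the 3 highest in untreated Parental cells of each class. The members and the gene lists were chosen with earlier results of these data known. A library with 61 peaks whose labels give no single treatment was left out of the comparisons. Replicates are named biological in the study, and p-values measure the spread between these samples, from single clones for RING1B WT and I53S. The study lists 2 Eed fl/fl clones, and the titles do not say which gave the Eed RNA replicates. Labels give 72 h of OHT for all treated cells in the protocol and 48 h in some titles, and the titles were used. A gene of the fixed lists is not reported here.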

Additional observations from a re-analysis of the deposited data

Results flagged for a closer look

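For 7 of the named genes the OHT effect in RING1B WT cells differed from that in Parental cells in a test of the difference itself (edgeR quasi-likelihood, adjusted over 18154 genes, 2 replicates a group). Of all 582 tested genes with narrow loci alone, the WT effect was lower for 19 (3.26%) and higher for 3. Over all genes 1.23% were lower and 0.837% higher. On the log2 scale the WT effect was lower by −3.77 for Tdrd1 (adjusted p = 0.011), −3.21 for Tcam1 (0.004), −2.51 for Eif4e3 (0.0039), −2.29 for Prtn3 (0.041), −2.04 for Slc7a8 (0.0064) and −1.43 for Bcor (0.007). It was higher by 1.34 for Sinhcaf (0.012), which fell in Parental cells. Bcor, which has both kinds of locus, was named from a fixed list. The others were chosen by their changes in these lines, so the differences describe them and are no independent support.

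One peak list with no assigned group, from a library whose title names RYBP, held 61 peaks and overlapped 8 of the 975 narrow loci, against 3 or 4 for the 4 input libraries. Of the 8, 2 lie on chromosome 11.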

How the results depend on the processing

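Of the genes called at narrow loci (209 in Parental, 174 in I53S, 24 in RING1B WT and 0 in Eed fl/fl cells), at least 10 counts in every library left 90, 67, 10 and 1. Under that filter 7.8%, 5.57%, 0.642% and 0.108% of all genes were called. A width limit of 700 bp left 136 in Parental and 112 in I53S cells. No fold limit gave 270 in I53S cells, and 4856 of 18154 over all genes. Fitting only the 4 WT libraries gave 14 (0.983% of all genes were called), and DESeq2 gave 1 for Eed fl/fl (0.0555%). Leaving out 1 library at a time gave 176 to 197 in Parental, 127 to 175 in I53S, 3 to 23 in WT and 0 to 11 in Eed fl/fl cells. Same-numbered replicates correlated at 0.19, 0.23, 0.12 and 0.59 within the 4 lines. Between the Parental, I53S and WT lines they correlated at 0.50 to 0.62 without OHT and at 0.25 to 0.28 with OHT. These values do not pair them by a stated source. A replicate block gave 215, 180, 26 and 2, with 17.5%, 14.4%, 1.6% and 0.64% of all genes called. Over all genes in Eed fl/fl cells the block raised the count of genes that rose from 2 to 140. Named genes kept direction and side of the threshold under 484 alternatives, 24 were weaker, 5 stronger and none reversed.

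Shares of narrow loci with a peak moved most with peaks of a score of at least 20: RING1B Parental −OHT 76.0 to 53.5%, H2AK119ub1 WT 59.4 to 39.1%, I53S 21 to 5.95%, H3K27me3 WT 63.1 to 41.9%, I53S 19.5 to 7.28%, PCGF2 WT 54.4 to 28.5%, PCGF6 WT 55 to 30.4%, I53S 17.4 to 11.2%. Without chromosome 11, an alternative chosen after seeing the data, the shares were 90.6% (RING1B Parental −OHT), 64.3% and 74.7% (H2AK119ub1 and H3K27me3 WT), 22.8% (H3K27me3 I53S), 67.7% (PCGF2 WT) and 64.1% (PCGF6 WT). Under 700 bp they were 72.3% (RING1B Parental −OHT), 56.2% and 58.1% (H2AK119ub1 and H3K27me3 WT), 15.8% (H3K27me3 I53S), 49.4% (PCGF2 WT) and 51.4% (PCGF6 WT). Under 900 bp they were 62.8% (H2AK119ub1 WT), 67.0% (H3K27me3 WT) and 58.4% (PCGF2 WT). H2AK119ub1 WT was 50.1% by the centre base and by 50% covered, and 63.3% with 500 bp to either side. Classes with a score of at least 20 were 68.7% (H3K27me3 or PCGF2), 8.10% (PCGF6), 0% (RYBP) and 23.2% (none), and without chromosome 11 88.7%, 0% for RYBP and 5.90% for none. The cause of these moves was not tested.

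Peak lists give no levels and 1 library an antibody gives no spread, so differences of a few points between lines cannot be read as changes.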
